A study of Mus musculus with 6 samples.

Results

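This account covers 39 genes of mitosis and cytokinesis in mouse CD41+ cells that had Txnip or lacked it. The genes were chosen by symbol and by what their products do, from the entry into mitosis to the last cut between daughter cells. No measured value entered that rule, but earlier results of these data were known when the genes were chosen. All 39 were among the 24410 gene symbols of the deposited table, and all 39 passed the filter of at least 1 FPKM (fragments per kilobase of transcript, scaled to the fragments of the library, so a level per length) in at least 3 libraries, which 11249 symbols passed.

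The 6 libraries were 3 from wild-type mice (WT) and 3 from Txnip-/- mice (KO), all C57BL/6 and all 5 months old. Txnip encodes thioredoxin-interacting protein, an arrestin-like protein that binds thioredoxin and limits glucose uptake. Bone marrow cells depleted of mature lineages were grown for 3 days with the same additions in both genotypes, among them 100 ng/mL stem cell factor (Scf) and 10% serum, and CD41+ cells were then sorted for RNA. CD41, encoded by Itga2b, is the integrin chain that marks megakaryocytes and also some early progenitors, and the labels do not say whether the libraries of a genotype came from separate mice or how many were pooled, so p-values measure the spread between these libraries, which may be technical.

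Cyclin B with its kinase, the Aurora kinases and Polo-like kinase carry a cell into mitosis. The spindle checkpoint then holds the anaphase-promoting complex back until every kinetochore is attached, after which separase cuts cohesin and sister chromatids part. The chromosomal passenger complex and the central spindle finally recruit the exchange factor Ect2, which starts the contractile ring. Megakaryocytes become polyploid by endomitosis, in which the cell enters mitosis but fails late in anaphase or in cytokinesis, and a lower level of Ect2 and Arhgef2 (GEF-H1) is part of that switch in mouse megakaryocytes. Most of these genes are transcribed in G2 and M phase, so in a mixed sample their level follows the share of dividing cells. In such bulk RNA, fewer cells of a type and less RNA per cell cannot be told apart.

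The labels held for the targeted gene. Txnip stood at 112, 228 and 143 FPKM in WT 1, WT 2 and WT 3, and at 0, 0.04 and 0 FPKM in KO 1, KO 2 and KO 3, a difference of -7.26 on the log2(FPKM + 1) scale (SE 0.28, limma adjusted p = 2.02e-05). The summed FPKM of a library lay between 715205 and 805730 in 5 libraries and at 1131641 in WT 2, where the RNA components of ribonucleases P and MRP, Rpph1 and Rmrp, took 30.4% of the sum, against 10.7% to 20.6% elsewhere. Sequencing depth is not given, and the spacing of low values put 4 libraries at roughly 14400000 to 25700000 counted fragments and gave no clear value for WT 3 and KO 2. For KO 1, the lowest of the 4, another depth matched the spacing nearly as well, so the low end is uncertain. Of the markers of the cells a CD41 gate could hold, all 13 megakaryocyte genes were in the table, with a summed level of 666 to 1791 FPKM in WT and 699.6 to 1891 FPKM in KO (7 of 13 higher in KO). The 11 granulocyte genes summed to 6208 to 7971 FPKM in WT and 4014 to 9251 FPKM in KO (9 lower in KO), the 10 mast cell and basophil genes to 1049 to 1565 and 650.2 to 1378 FPKM (8 lower), and the 11 monocyte genes found to 284 to 469 and 285 to 487 FPKM (10 higher). The 10 erythroid genes summed to 134 to 162 FPKM in WT and 110.5 to 120.5 FPKM in KO, groups that did not overlap (7 of 10 lower), and the 6 lymphoid genes to at most 1.15 FPKM, with Cd3e at 0 in every library. The part of these other cells in the values below was not tested.

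The cells held high levels of mitotic messages in both genotypes. The median gene of the 39 had a mean of 42.9 FPKM over the 6 libraries, against 14.0 FPKM for the median tested gene, and 36 of the 39 lay above that median. Top2a, the topoisomerase that untangles sister chromatids, was highest with 218 to 364 FPKM, and Mki67, the proliferation antigen that coats mitotic chromosomes, followed with 122 to 190.4 FPKM. Ube2c, the ubiquitin-conjugating enzyme of the anaphase-promoting complex, Ccnb1 and Ccnb2 (cyclins B1 and B2), Kif11 (the bipolar spindle motor Eg5) and Birc5 (survivin) had means of 93.9, 106, 101, 100.3 and 95.5 FPKM. The lowest were Foxm1, the transcription factor of the G2 programme, with 5.15 to 19.1 FPKM, Cdc25c, a phosphatase that switches on the cyclin B kinase, with 9.03 to 18.6 FPKM, and Cdc25b, a phosphatase of the same family, with 8.14 to 18.5 FPKM. These levels are per length and so can be ordered between genes, but neighbours in the order overlapped in their library values, apart from Top2a, whose lowest library lay above the highest of Mki67.

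The windows around the starts of many of these genes hold the letters of the promoter code of late cell cycle genes, shown here as a feature they share that the choice of genes did not use. A match of letters is a description and not a bound site. That code pairs a cell cycle homology region (CHR; letters TTTGAA or TTCGAA), bound by the DREAM and MuvB complexes that silence the gene in quiescent cells and switch it on in G2, with one or more NF-Y boxes (letters CCAAT) upstream. RefSeq promoter windows of 300 bases, from 250 before to 50 after an annotated start (GRCm38.p6), were matched for 33 of the 39 genes, and Tpx2, Kif20a, Incenp, Cdc25c, Foxm1 and Aurkb had no match. Read on both strands, a CHR stood in the window of 25 of the 33 genes (75.8%), against 16.6% of 8628 tested genes and 21.7% of all 27025 genes with a window. An NF-Y box stood in 26 of the 33 (78.8%), against 43.4% and 41.1%, and both motifs in 22 of the 33 (66.7%), against 6.95% and 8.61%. The CHR of 23 genes lay within 50 bases of the start, which 4.45% of tested genes had, and 16 genes had 2 or more NF-Y boxes in 1 window, against 17.2% of tested genes. The 4 genes with both motifs and the highest mean level are printed below from 5′ to 3′ in the direction of the gene, with every CHR and NF-Y box, on either strand, in capitals.
Top2a: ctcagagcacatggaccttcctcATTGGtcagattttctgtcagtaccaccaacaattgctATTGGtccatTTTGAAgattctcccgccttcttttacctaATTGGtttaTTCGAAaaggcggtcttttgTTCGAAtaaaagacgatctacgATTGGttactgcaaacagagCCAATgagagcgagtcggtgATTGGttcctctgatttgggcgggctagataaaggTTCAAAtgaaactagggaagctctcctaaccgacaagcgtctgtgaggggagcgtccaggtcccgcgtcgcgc
Mki67: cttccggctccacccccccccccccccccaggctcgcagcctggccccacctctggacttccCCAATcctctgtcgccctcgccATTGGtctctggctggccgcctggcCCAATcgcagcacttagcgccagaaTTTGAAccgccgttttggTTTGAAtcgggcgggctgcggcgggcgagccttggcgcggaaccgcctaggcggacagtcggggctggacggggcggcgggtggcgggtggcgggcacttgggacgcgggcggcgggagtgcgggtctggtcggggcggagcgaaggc
Ccnb2: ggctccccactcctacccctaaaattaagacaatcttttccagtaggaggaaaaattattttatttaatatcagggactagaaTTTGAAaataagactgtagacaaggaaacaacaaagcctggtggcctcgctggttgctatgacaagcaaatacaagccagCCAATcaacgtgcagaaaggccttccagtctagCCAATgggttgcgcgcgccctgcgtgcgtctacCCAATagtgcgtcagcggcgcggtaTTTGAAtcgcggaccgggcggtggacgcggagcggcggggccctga
Kif11: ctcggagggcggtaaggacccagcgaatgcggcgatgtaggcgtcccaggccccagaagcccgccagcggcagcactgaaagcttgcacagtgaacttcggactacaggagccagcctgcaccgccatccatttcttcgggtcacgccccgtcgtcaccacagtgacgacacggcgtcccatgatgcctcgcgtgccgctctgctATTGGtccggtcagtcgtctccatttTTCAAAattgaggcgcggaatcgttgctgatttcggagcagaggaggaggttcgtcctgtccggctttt

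The windows lie at chr11:99024140-99024439 on the minus strand for Top2a, chr7:135716330-135716629 on the minus strand for Mki67, chr9:70421505-70421804 on the minus strand for Ccnb2 and chr19:37376132-37376431 on the plus strand for Kif11. Those of Ccnb2, Kif11 and Top2a have a CHR close to the start, with NF-Y boxes upstream of it in Ccnb2 and Top2a and an NF-Y box in Kif11. The Top2a window holds both motifs several times, and the Ccnb2 window has another CHR further upstream. The Mki67 window has its CHR letters only further upstream. The letters of a CHR were not in the windows of Arhgef2, Birc5, Ccnb1, Cenpe, Fzr1, Mad2l1, Nuf2 and Pttg1, which says only that these spellings are not in these windows. The median difference between KO and WT was 0.094 on the log2(FPKM + 1) scale in the 25 genes with a CHR and -0.053 in the 8 without. For the NF-Y box it was 0.124 in the 26 with and -0.052 in the 7 without, and for the pair of motifs 0.099 in the 22 with both and 0.089 in the 11 others. These are descriptions with no test.

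**Figure D1:**
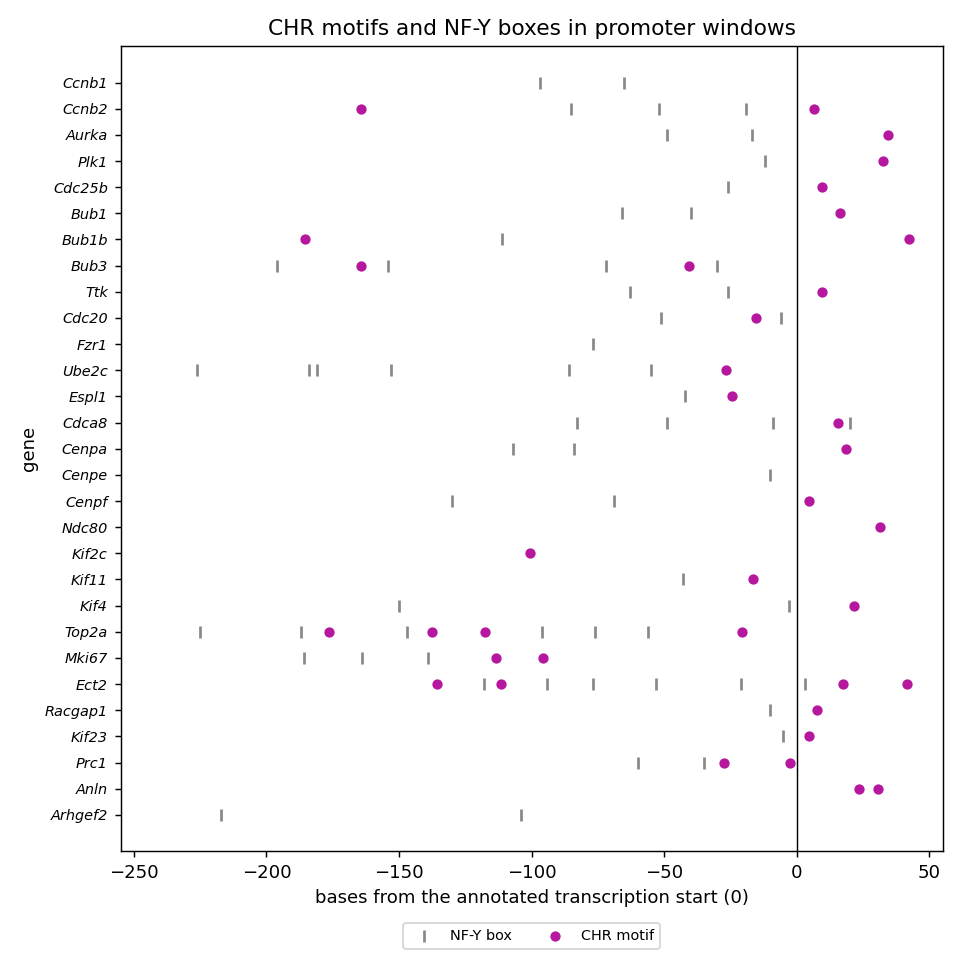
Positions of CHR motifs (dots) and NF-Y boxes (bars) in the RefSeq promoter windows, 1 row for each gene with either motif, the x axis in bases from the annotated start (0). The dots of 23 genes lie within 50 bases of the start, mostly downstream of the bars, and a gene with more than 1 annotated start can show a site at more than 1 position.

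The comparison of KO with WT asks whether mitotic and cytokinetic messages differed between the genotypes in sorted CD41+ cells, which held markers of several lineages. None of the 39 genes was called. Limma gave 0 at an adjusted p under 0.05 and 0 at an unadjusted p under 0.05. Over all 11249 tested genes the shares were 0.0178% and 0.676% (2 genes, Txnip and Cd1d2, and 76 genes). The second share is below what an unadjusted threshold of 0.05 admits when nothing differs, so the fit without the block was conservative here. The smallest unadjusted p was 0.294, for Mad2l1, and the adjusted p was 1 for each of the 39. With the replicate number as a block, again 0 of 39 passed, adjusted or unadjusted, against 0.0267% and 6.93% of tested genes, and the smallest adjusted p was 0.806. In no gene of the 39 did the genotypes separate. Of all tested genes, 3.32% had their lowest KO value above the highest WT value and 1.03% the reverse. At shares this low few or none of 39 genes would be counted, so these counts of 0 do not set the 39 apart from other genes.

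The differences were small, and their intervals bound them. The fitted difference was above 0 in 30 genes and below 0 in 9, with a median of 0.094 (0.061 over all tested genes, of which 63.4% were above 0) and a range from -0.26 for Mad2l1 to 0.25 for Cdc25c. The median SE was 0.235, and this SE and those given for single genes come from the fit without the block. The 95% interval lay within -1 to 1 on the log2 scale for 38 of the 39 genes and, with the block, for all 39. The exception was Foxm1, at -0.87 to 1.11. Most tested genes had such intervals too, 8659 of 11249 without the block and 10866 of 11249 with it. An interval of this width does not show that levels were equal. The split by sign varied with the scaling. With libraries rescaled to a common FPKM sum, 38 genes were above 0 and 1 below, with a median of 0.265 beside 0.218 over all tested genes. With quantile normalization, 29 were above 0 and 10 below, with a median of 0.077 beside 0.008 over all tested genes. The median of the 39 exceeded that of all genes under each of these scalings.

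The 39 genes together did not separate the genotypes either. Their summed level was 2201, 2096 and 2380 FPKM in WT 1 to WT 3, and 2158, 2559 and 2302 FPKM in KO 1 to KO 3, with means of 2225 ± 144 FPKM (SD, n = 3) in WT and 2339.7 ± 203 FPKM (SD, n = 3) in KO. WT 2 was the lowest and KO 2 the highest library, and the groups overlapped. As a share of all FPKM the sum was 0.306%, 0.185% and 0.324% in WT and 0.301%, 0.318% and 0.322% in KO, so that WT 2, with its larger total, stood alone and the other 5 libraries lay close together.

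**Figure D2:**
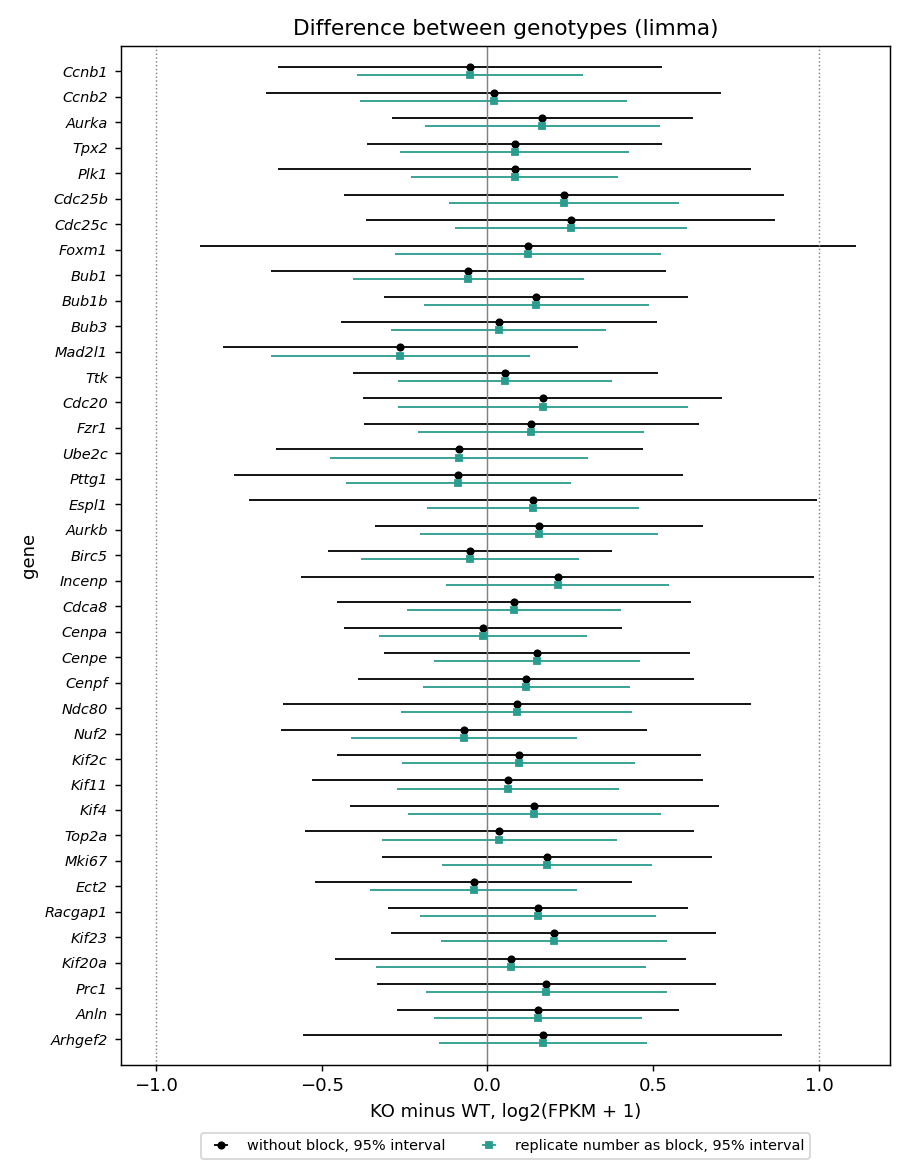
Fitted difference between KO and WT of each of the 39 genes on the log2(FPKM + 1) scale (x axis; limma, 3 libraries a group), with its 95% interval, without the block (black) and with the replicate number as a block (green). Every interval crosses 0, and those of the block are narrower.

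Among the 8 regulators of mitotic entry, 7 differences were above 0 and 1 below, with a median of 0.102. Cyclin B1 (Ccnb1), the activating partner of Cdk1, did not separate the genotypes. Ccnb1 stood at 88.9, 111 and 122 FPKM in WT 1, WT 2 and WT 3 and at 75.2, 131 and 109 FPKM in KO 1, KO 2 and KO 3. The libraries numbered 1 were the lowest of each genotype, and the groups overlapped; the difference was -0.053 (SE 0.25, limma adjusted p = 1). Cyclin B2 (Ccnb2) ranged from 75.5 to 155 FPKM, with KO 2 highest and KO 1 lowest. Polo-like kinase 1 (Plk1) acts from entry through to cytokinesis. The level of Plk1 was 36.2, 18.1 and 24.5 FPKM in WT 1 to WT 3, against 36.6, 19.4 and 27.0 FPKM in KO 1 to KO 3. The order of the replicate numbers was the same in both genotypes, each KO library stood just above the WT library of its number, and the difference was 0.082 (SE 0.31, limma adjusted p = 1). Of all tested genes, 20.4% were higher in KO in all 3 pairs. WT 1, WT 2 and WT 3 had 42.6, 35.3 and 43.1 FPKM of Aurka, and KO 1, KO 2 and KO 3 had 39.8, 50.7 and 45.7 FPKM. In Aurka, the kinase of the spindle poles, KO 2 was highest and WT 2 lowest, KO 1 lay below WT 1 and WT 3, and the difference was 0.17 (SE 0.20, limma adjusted p = 1). Its activator Tpx2 ranged from 46.4 to 61.6 FPKM, again from WT 2 to KO 2.

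Cdc25c had the largest positive difference of the 39. Cdc25c stood at 9.03, 13.2 and 11.1 FPKM in WT 1, WT 2 and WT 3 and at 11.5, 18.6 and 10.7 FPKM in KO 1, KO 2 and KO 3. KO 2 was well above the other 5 libraries, and KO 3 lay below WT 2 and WT 3. The difference was 0.25 (SE 0.27, limma adjusted p = 1), with a 95% interval of -0.37 to 0.87, and without KO 2 it was 0.021. Cdc25b ranged from 8.14 to 18.5 FPKM and differed by 0.23 (SE 0.29, limma adjusted p = 1). Foxm1 varied most between libraries of all 39 genes, 3.7-fold from the lowest (KO 2) to the highest (KO 1), with both extremes in the same genotype.

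The 5 spindle checkpoint genes split 3 above 0 and 2 below. Mad2l1 (Mad2), the checkpoint protein that captures Cdc20, had the lowest difference of the 39. The level of Mad2l1 was 75.2, 106 and 60.7 FPKM in WT 1 to WT 3, against 64.7, 64.3 and 66.7 FPKM in KO 1 to KO 3. WT 2 stood alone above the other 5 libraries, and WT 3 was the lowest of all 6, so the groups overlapped. The difference was -0.26 (SE 0.24, limma adjusted p = 1), and without WT 2 it was -0.051. Bub1b (BubR1), a subunit of the mitotic checkpoint complex, went the other way. WT 1, WT 2 and WT 3 had 54.6, 53.5 and 65.1 FPKM of Bub1b, and KO 1, KO 2 and KO 3 had 55.1, 72.8 and 64.6 FPKM. KO 2 was highest and the remaining libraries were mixed, with a difference of 0.15 (SE 0.20, limma adjusted p = 1). The kinases Bub1 and Ttk (Mps1) and the kinetochore protein Bub3 ranged from 30.1 to 52.4, from 18.1 to 23.5 and from 71.0 to 96.1 FPKM, with differences of -0.058, 0.054 and 0.033.

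Of the 5 genes that trigger anaphase, 3 were above 0 and 2 below, with a median of 0.132. Cdc20 activates the anaphase-promoting complex in metaphase. Cdc20 stood at 85.3, 67.3 and 97.6 FPKM in WT 1, WT 2 and WT 3 and at 78.3, 118 and 86.1 FPKM in KO 1, KO 2 and KO 3. WT 2 was lowest and KO 2 highest, while KO 1 and KO 3 lay below the WT libraries of their numbers; the difference was 0.17 (SE 0.24, limma adjusted p = 1). Fzr1 (Cdh1) takes over from Cdc20 at mitotic exit and keeps cyclin B low in G1. The level of Fzr1 was 39.2, 26.4 and 36.0 FPKM in WT 1 to WT 3, against 42.0, 35.2 and 33.4 FPKM in KO 1 to KO 3. WT 2 stood low, the other 5 libraries were close, and the difference was 0.13 (SE 0.22, limma adjusted p = 1). Ube2c and the securin gene Pttg1, whose product restrains separase, differed by -0.085 and -0.088, and separase itself (Espl1, from 8.41 to 21.1 FPKM) by 0.14.

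The 4 genes of the chromosomal passenger complex, which corrects attachments and then moves to the midzone, were 3 above 0 and 1 below. Aurkb stood at 68.8, 61.6 and 86.8 FPKM in WT 1, WT 2 and WT 3 and at 67.7, 89.3 and 84.5 FPKM in KO 1, KO 2 and KO 3. In this gene for the complex's kinase WT 2 was lowest and KO 2 highest, the other 4 libraries were mixed, and the difference was 0.16 (SE 0.22, limma adjusted p = 1). Survivin (Birc5) was among the steadiest. The level of Birc5 was 97.0, 88.0 and 107 FPKM in WT 1 to WT 3, against 99.1, 93.5 and 88.3 FPKM in KO 1 to KO 3. WT 3 was highest and WT 2 lowest, so that the WT libraries enclosed all KO libraries, and the difference was -0.052 (SE 0.19, limma adjusted p = 1). The scaffold Incenp showed the replicate numbers instead. WT 1, WT 2 and WT 3 had 51.3, 22.9 and 35.6 FPKM of Incenp, and KO 1, KO 2 and KO 3 had 59.4, 31.7 and 35.0 FPKM. Both libraries numbered 1 were highest and WT 2 was lowest, with a difference of 0.21 (SE 0.34, limma adjusted p = 1). Borealin (Cdca8) ranged from 39.6 to 62.0 FPKM and differed by 0.081.

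The 6 centromere and kinetochore genes had a median of 0.092, with 4 above 0 and 2 below. Cenpe, the kinesin that carries chromosomes to the spindle equator, and Cenpf, a large kinetochore protein of G2 and M, each stood higher in KO in all 3 pairs of equal number. Of all tested genes, 20.4% did so. Cenpe stood at 33.0, 25.5 and 31.8 FPKM in WT 1, WT 2 and WT 3 and at 36.0, 29.8 and 34.3 FPKM in KO 1, KO 2 and KO 3. The level of Cenpf was 23.2, 17.3 and 23.5 FPKM in WT 1 to WT 3, against 25.3, 19.4 and 24.8 FPKM in KO 1 to KO 3. WT 2 was the lowest library for both, KO 2 lay below WT 1 and WT 3 for both, and the differences were 0.15 (SE 0.20, limma adjusted p = 1) and 0.12 (SE 0.22, limma adjusted p = 1). The centromeric histone Cenpa varied least of the 39, from 57.6 to 68.1 FPKM (1.18-fold), and differed by -0.014. The microtubule-binding Ndc80 and its partner Nuf2 ranged from 24.9 to 56.0 and from 32.5 to 55.6 FPKM, both lowest in KO 1 and highest in KO 2. The depolymerase Kif2c (MCAK) ranged from 25.2 to 38.0 FPKM.

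All 4 genes of spindle motors and mitotic chromosomes had differences above 0, with a median of 0.101. Mki67 stood at 173, 122 and 156 FPKM in WT 1, WT 2 and WT 3 and at 190.4, 149 and 169.5 FPKM in KO 1, KO 2 and KO 3. In Mki67 the libraries numbered 1 were highest in each genotype and WT 2 was lowest, and the difference was 0.18 (SE 0.22, limma adjusted p = 1). The level of Top2a was 257, 292 and 327 FPKM in WT 1 to WT 3, against 218, 364 and 334 FPKM in KO 1 to KO 3. The extremes of Top2a were both KO libraries, KO 1 lowest and KO 2 highest, and the difference was 0.036 (SE 0.26, limma adjusted p = 1). The chromokinesin Kif4 organises the chromosome axis and the central spindle. WT 1, WT 2 and WT 3 had 26.7, 29.0 and 33.0 FPKM of Kif4, and KO 1, KO 2 and KO 3 had 25.7, 44.4 and 30.3 FPKM. KO 2 stood above the other 5 libraries, and KO 1 and KO 3 lay below the WT libraries of their numbers. The difference was 0.14 (SE 0.24, limma adjusted p = 1). Kif11 ranged from 72.9 to 129 FPKM, lowest in KO 1 and highest in KO 2.

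The 7 genes of the central spindle and cytokinesis, the step at which endomitotic cells fail, had 6 differences above 0 and 1 below, with a median of 0.152. Ect2 was the only gene of the 39 that was lower in KO in all 3 pairs, as 8.68% of tested genes were. Ect2 stood at 32.8, 25.4 and 26.9 FPKM in WT 1, WT 2 and WT 3 and at 31.8, 24.1 and 26.8 FPKM in KO 1, KO 2 and KO 3. The steps within pairs were small beside the gap between number 1 and the others, the groups overlapped, and the difference was -0.042 (SE 0.21, limma adjusted p = 1), which became 0.13 after rescaling to a common sum. Its 95% interval ran from -0.52 to 0.43 and, with the replicate number as a block, from -0.35 to 0.27. Arhgef2, a guanine nucleotide exchange factor that is released from microtubules, was higher in KO in all 3 pairs, as 20.4% of tested genes were. The level of Arhgef2 was 70.8, 35.5 and 40.6 FPKM in WT 1 to WT 3, against 74.0, 41.4 and 47.5 FPKM in KO 1 to KO 3. Both libraries numbered 1 were far above the other 4, and the difference was 0.17 (SE 0.32, limma adjusted p = 1), with an interval of -0.56 to 0.89. With the block the SE of Arhgef2 was 0.14 and its interval -0.15 to 0.48.

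Centralspindlin, the complex that brings Ect2 to the midzone, consists of Racgap1 (MgcRacGAP) and the kinesin Kif23 (MKLP1). Racgap1 stood at 46.7, 37.7 and 49.1 FPKM in WT 1, WT 2 and WT 3 and at 47.4, 54.2 and 46.5 FPKM in KO 1, KO 2 and KO 3. WT 2 was lowest, KO 2 highest and the other 4 libraries nearly level, with a difference of 0.15 (SE 0.20, limma adjusted p = 1). The level of Kif23 was 26.9, 20.5 and 22.6 FPKM in WT 1 to WT 3, against 29.8, 28.9 and 22.4 FPKM in KO 1 to KO 3. KO 1 and KO 2 were highest, but KO 3 lay below WT 1 and WT 3, and the difference in Kif23 was 0.20 (SE 0.22, limma adjusted p = 1). Anillin (Anln), the scaffold of the contractile ring, was higher in KO in all 3 pairs, as 20.4% of tested genes were. WT 1, WT 2 and WT 3 had 30.6, 27.4 and 29.0 FPKM of Anln, and KO 1, KO 2 and KO 3 had 32.2, 30.2 and 34.8 FPKM. KO 2 lay below WT 1, so the groups overlapped, and the difference was 0.15 (SE 0.19, limma adjusted p = 1). The midzone bundler Prc1 ranged from 56.3 to 88.4 FPKM and the motor Kif20a (MKLP2), which relocates the passenger complex, from 33.5 to 51.7 FPKM, both highest in KO 2.

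**Figure D3:**
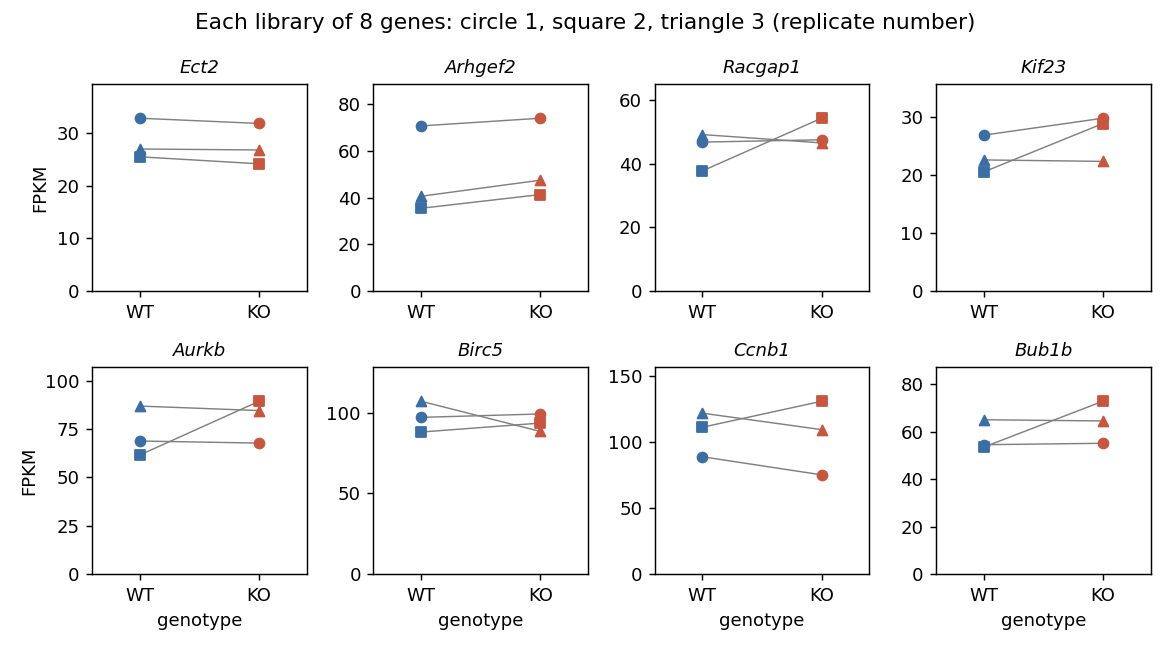
FPKM (y axes, from 0) of 8 genes in WT and KO libraries; circles, squares and triangles are replicate numbers 1, 2 and 3, and a line joins libraries of equal number. Ect2 and Arhgef2 run nearly level with number 1 on top, while Racgap1, Kif23, Aurkb and Bub1b have their steepest line between WT 2 and KO 2.

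The sign of the differences rested on the libraries numbered 2. Between KO 2 and WT 2, 35 of the 39 genes were higher in KO (89.7%, against 58.8% of tested genes), with a median of 0.279 on the log2 scale beside 0.091 over all tested genes. In the pairs numbered 1 and 3, 18 and 15 of the 39 were higher in KO (46.2% and 38.5%, against 55.3% and 57.8%), with medians of -0.018 and -0.023. WT 2 was the lowest library for 20 of the 39 genes, and for 30.7% of tested genes. KO 2 was the highest for 18 of the 39, and for 20.4% of tested genes. Without WT 2 the count above 0 was 21 of 39, with a median of 0.017 beside 0.008 over all tested genes. Without KO 2 the count was 22, with a median of 0.012 beside 0.109 over all tested genes. With both left out and the block kept the count was 15, with a median of -0.026 beside 0.048. Over all 3 pairs, 7 of the 39 were higher in KO each time (20.4% of tested genes were), Plk1, Espl1, Cenpe, Cenpf, Mki67, Anln and Arhgef2, and 1 was lower each time, Ect2, against 8.68% of tested genes. Rpph1 and Rmrp took 30.4% of the FPKM sum in WT 2 and 11.0% in KO 2, and their part in the low values of WT 2 was not tested; with libraries rescaled to a common sum that leaves both genes out, 38 of the 39 were above 0, with a median of 0.203 beside 0.163 over all tested genes.

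**Figure D4:**
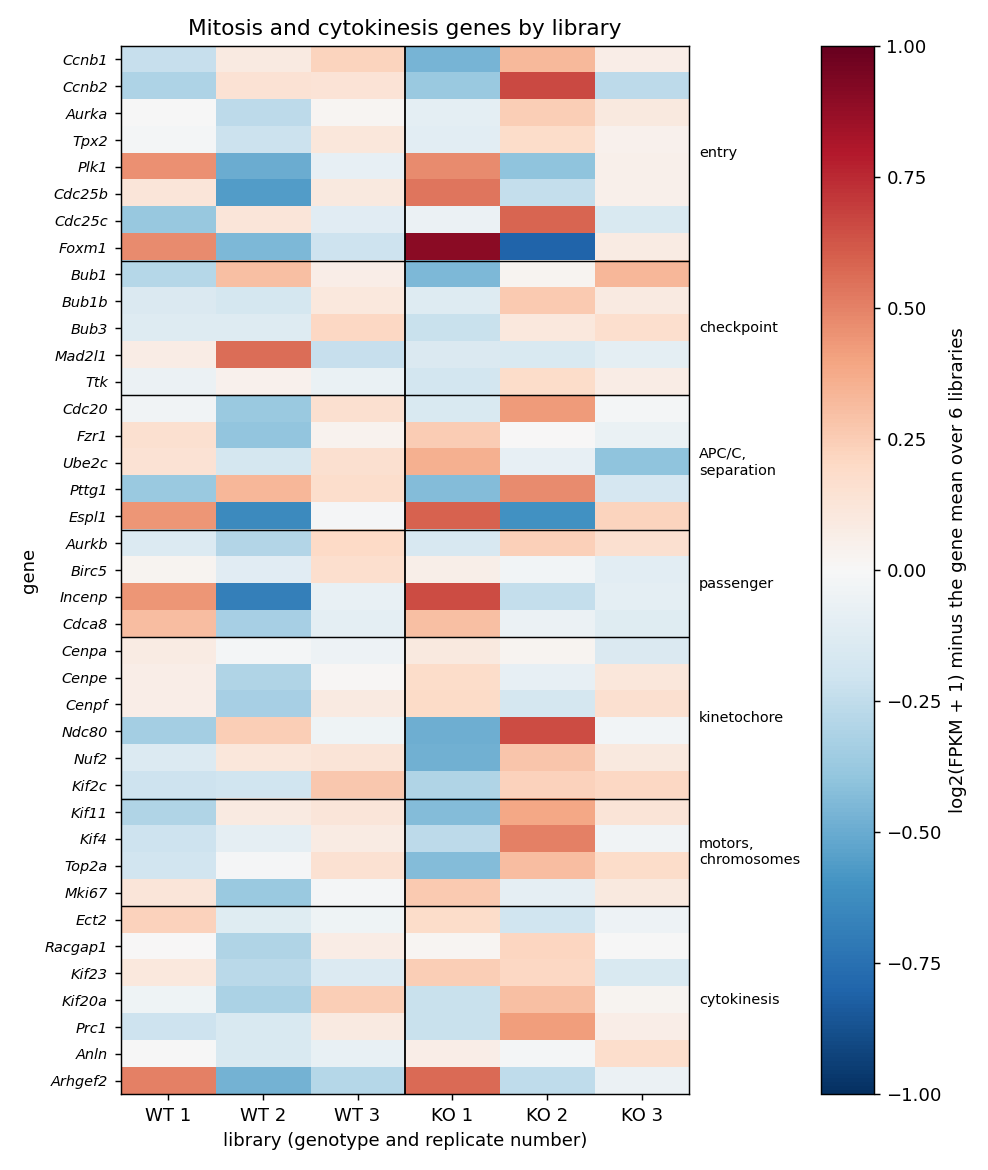
Colour shows log2(FPKM + 1) of each gene in each library minus that gene's mean over the 6 libraries, from -1 (blue) to 1 (red), with rows grouped by role. WT 1 and KO 1 show the same pattern of red and blue rows, and WT 2 is blue in most rows.

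Libraries of replicate number 1 differed from the others by more than the genotypes differed. Comparing the 2 libraries numbered 1 with the other 4 on the log2(FPKM + 1) scale gave a difference larger in size than that between genotypes in 34 of the 39 genes, as in 77.8% of tested genes, with a median size of 0.32 against 0.116. The difference ran in opposite directions in different mitotic genes. It was highest for Foxm1 (1.03), Incenp (0.82), Arhgef2 (0.80), Espl1 (0.78) and Plk1 (0.70), and lowest for Ndc80 (-0.62) and Pttg1 (-0.61). Both libraries numbered 1 lay above the other 4 in 11 genes (28.2%, against 32.4% of tested genes): Plk1, Cdc25b, Foxm1, Fzr1, Espl1, Incenp, Cdca8, Cenpa, Mki67, Ect2 and Arhgef2. They lay below the other 4 in 12 genes (30.8%, against 16.5%): Ccnb1, Ccnb2, Bub1, Bub3, Pttg1, Ndc80, Nuf2, Kif2c, Kif11, Kif4, Top2a and Prc1. Libraries numbered 2 were above the rest in 4 genes and below in 9 (14.3% and 26.3% of tested genes), and those numbered 3 in 1 gene each way, Bub3 above and Cenpa below (6.06% and 6.17%).

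The pattern was alike in the 2 genotypes. The difference between number 1 and the others had the same sign in WT and in KO in 34 of the 39 genes, and across the 39 genes the values in WT and in KO had a Spearman correlation of 0.94, a description across genes, which are not independent replicates. It went with base composition: GC content of the longest coding transcript (GENCODE M21, GRCm38) had a median of 54.2% in the 11 genes that were above, from 40.2% for Ect2 to 59.9% for Fzr1, and 44.15% in the 12 that were below, from 41% to 50.3%. Across the 39 genes GC content and the difference had a Spearman correlation of 0.52, and across 10464 tested genes with a transcript 0.11, while transcript length gave 0.22 and 0.39. The summed megakaryocyte markers were also lowest in the libraries numbered 1, at 666 FPKM in WT 1 and 699.6 FPKM in KO 1 against 1042 to 1891 FPKM in the other 4. Most of that sum was Pf4, at 465 and 476 FPKM against 772 to 1545 FPKM, while Itgb3, another gene of the list, was higher in the libraries numbered 1, at 45.5 and 41.5 FPKM against 25.4 to 31.3 FPKM. The summed mast cell and basophil markers were highest in the libraries numbered 1, at 1565 FPKM in WT 1 and 1378 FPKM in KO 1 against 650.2 to 1128 FPKM in the other 4. Of that list, Kit, Gzmb, Mcpt8, Prss34, Tpsb2 and Mcpt4 were higher in both libraries numbered 1 than in the other 4. Ms4a2 and Hdc overlapped, and Cpa3 and Fcer1a were highest in WT 2, at 369 and 34.8 FPKM. The lymphoid sum was also highest in the libraries numbered 1, at 0.54 and 1.15 FPKM against 0.09 to 0.24 FPKM. Most of it was Cd79a, at 0.31 FPKM in WT 1 and 1.1 FPKM in KO 1. The part of base composition and of cell mixture in this pattern was not tested, and the labels do not say what the number stands for. The difference between KO and WT had a Spearman correlation with GC content of 0.44 across the 39 genes and 0.3 across tested genes.

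**Figure D5:**
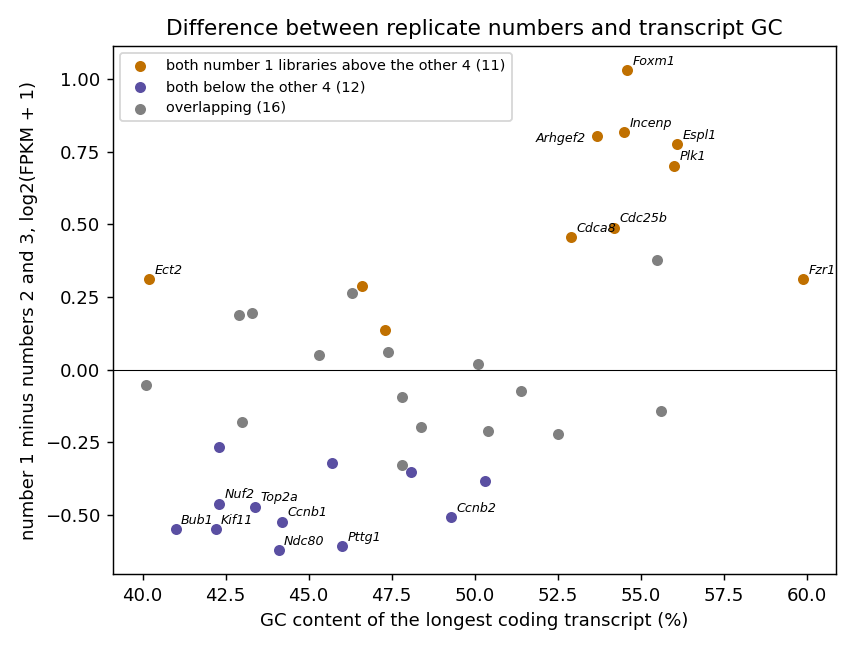
Difference of each gene between libraries of replicate number 1 and the other 4 (y axis, log2(FPKM + 1)) against GC content of its longest coding transcript (x axis, percent). Orange points, the 11 genes above in both genotypes, lie mostly at higher GC than the purple points, the 12 genes below, with Ect2 as the orange point of lowest GC.

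Cenpe, Ect2 and Arhgef2 lie on chromosome 3, as Txnip does. In the order of the 505 tested genes on that chromosome, 149, 259 and 105 genes lie between each of them and Txnip. None of the 3 was called.

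No gene of the wider mitotic machinery was called either. Of 124 other mitosis genes listed by function, 122 were tested, and limma called 0, with 0 at an unadjusted p under 0.05 (0.0178% and 0.676% of tested genes); 75 differences were above 0 and 47 below, with a median of 0.043. Sgol2 was not found under that symbol, and Myh10, a myosin of the contractile ring whose silencing belongs to megakaryocyte endomitosis, was under the filter at 0.44 to 0.78 FPKM in WT and 0.29 to 0.92 FPKM in KO. The cyclin B-Cdk1 switch and its transcription factors split 16 above 0 and 7 below (median 0.018), the subunits of the anaphase-promoting complex 7 and 7 (0.006), condensin and cohesin 10 and 8 (0.022), the kinetochore 14 and 13 (0.001), spindle and centrosome 15 and 5 (0.099), and contractile ring and abscission 13 and 7 (0.067).

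Cenpk, a subunit of the constitutive centromere network, had the largest of these differences that are named here. Cenpk stood at 20.4, 40.6 and 18.5 FPKM in WT 1, WT 2 and WT 3 and at 15.1, 14.6 and 22.9 FPKM in KO 1, KO 2 and KO 3. WT 2 was the highest library, KO 3 lay above WT 1 and WT 3, and the difference was -0.51 (SE 0.33, limma adjusted p = 1). Spc25 of the Ndc80 complex, differed by -0.36 (SE 0.25, limma adjusted p = 1). Anapc13, a small subunit of the anaphase-promoting complex, was the only one of the 122 whose highest KO value was below its lowest WT value (1.03% of tested genes). The level of Anapc13 was 49.4, 53.3 and 57.1 FPKM in WT 1 to WT 3, against 47.6, 43.7 and 39.3 FPKM in KO 1 to KO 3. The difference was -0.29 (SE 0.19, limma adjusted p = 1), and Anapc10 differed by -0.26 (SE 0.29, limma adjusted p = 1). The genotypes separated the other way in 5 genes (3.32% of tested genes): Cdca2, a phosphatase-targeting chromatin protein, Kifc1, a minus-end motor of the spindle, and Nsl1, Zwilch and Nek2, which are named after their values were seen. WT 1, WT 2 and WT 3 had 27.5, 20.4 and 27.3 FPKM of Kifc1, and KO 1, KO 2 and KO 3 had 32.0, 32.8 and 28.3 FPKM. The lowest KO library of Kifc1 exceeded the highest WT library by less than the spread within either genotype, and the difference was 0.31 (SE 0.21, limma adjusted p = 1). Cdca2 differed by 0.24 (SE 0.19, limma adjusted p = 1).

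The remaining genes with the smallest p of each list were not called, with an adjusted p of 1 in limma. Gtse1, a microtubule-binding protein of G2, differed by 0.21, the cohesin protector sororin (Cdca5) by 0.16 and the condensin subunit Ncaph by 0.17. The chromokinesin Kif22 differed by 0.27, Vps4a, the ATPase that completes abscission, by 0.29, and the septin Sept7 by -0.28. With the replicate number as a block, 0 of the 122 were called and 1 had an unadjusted p under 0.05 (0.0267% and 6.93% of tested genes). Left with the pairs numbered 1 and 2, the fit with the block has 1 residual degree of freedom and called 1 of them, Cenpk (-0.92, limma adjusted p = 0.00857), which differed by -0.057 with pairs 1 and 3.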

How the data were processed

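RNA of sorted CD41+ cells was sequenced, and no label names a strand setting or a read length. The authors deposited 1 table of FPKM for 3 WT and 3 KO libraries, with no counts. Per the submitters' processing notes, FastQC, Trimmomatic 0.39, STAR 2.7.0a, RSEM 1.2.31 and the mm9 build were used. Genes that reached 1 FPKM in 3 or more libraries were tested on log2(FPKM + 1) with limma 3.58.1 (R 4.3.3; moderated with a trend, two-sided, Benjamini-Hochberg over all tested genes, threshold 0.05), which understates changes of low genes. The script was tested on simulated data. A second fit had the replicate number of the labels as a block: libraries of equal number deviated together (r = 0.814, 0.595 and 0.381 over all genes for numbers 1, 2 and 3; 0.924, 0.717 and 0.172 over the 39 genes), so the numbers were taken to pair the samples. The members, the lists and the tests were chosen with earlier results of these data known. Library values are given for the 2 genes of each role with the smallest p and for Ect2, Arhgef2, Racgap1, Kif23, Aurkb, Birc5, Ccnb1, Plk1, Mki67, Top2a and Bub1b; of the other mitosis genes, the 2 of each list with the smallest p are named. Promoters are RefSeq windows of GRCm38.p6 and were used for letters only, since the table names genes by symbol. GC content came from GENCODE M21. An addition to the culture medium is not reported here.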

Additional observations from a re-analysis of the deposited data

How the results depend on the processing

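None of the 39 genes was called under any alternative that was run: a pseudocount of 0.1, no filter on low values, a mean of at least 5 FPKM, rescaling, quantile normalization, the replicate number as a block, and each library or each pair left out. The count of all genes called at an adjusted p under 0.05 in limma was 2, and it was 1 without a filter, 1 with a mean of at least 5 FPKM, 3 with the replicate block and 1 to 142 in the fits that left out a library or, with the block, a pair (1 without WT 2, WT 3 or KO 3; 36, 142 and 118 without pair 1, 2 and 3, with 1 residual degree of freedom). The pairing changed no call among the mitosis genes with all libraries in. The median difference of the 39 genes ran from -0.026 to 0.155 and their count above 0 from 15 to 34 in those fits. The number of other mitosis genes called ran from 0 to 1. Median differences after rescaling were 0.265 and, without Rpph1 and Rmrp, a setting chosen after seeing the data, 0.203.

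The sign of a single small difference often turned. After rescaling to a common FPKM sum the differences were Ccnb1 0.123, Bub1 0.116, Ube2c 0.0907, Pttg1 0.0837, Birc5 0.124, Cenpa 0.161, Nuf2 0.103, Ect2 0.128. Rescaled without Rpph1 and Rmrp they were Ccnb1 0.0589, Bub1 0.0526, Ube2c 0.0269, Pttg1 0.0207, Birc5 0.06, Cenpa 0.0978, Nuf2 0.0399, Ect2 0.0672. Quantile normalization gave Ttk -0.0231. With a library or a pair left out, 31 of the 39 turned in at least 1 fit, and 8 did not (Cdc25b, Cdc25c, Bub1b, Mad2l1, Cenpe, Mki67, Kif23 and Anln). The differences ranged over Ccnb1 -0.228 to 0.168, Ccnb2 -0.305 to 0.224, Aurka -0.00648 to 0.296, Tpx2 -0.0774 to 0.164, Plk1 -0.147 to 0.332, Foxm1 -0.3 to 0.553, Bub1 -0.238 to 0.15, Bub3 -0.0649 to 0.153, Ttk -0.0255 to 0.157, Cdc20 -0.151 to 0.339, Fzr1 -0.0323 to 0.251, Ube2c -0.285 to 0.153, Pttg1 -0.347 to 0.109, Espl1 -0.148 to 0.474, Aurkb -0.0307 to 0.293, Birc5 -0.122 to 0.0589, Incenp -0.0793 to 0.485, Cdca8 -0.0628 to 0.254, Cenpa -0.0648 to 0.0544, Cenpf -0.0212 to 0.233, Ndc80 -0.215 to 0.355, Nuf2 -0.227 to 0.152, Kif2c -0.0753 to 0.268, Kif11 -0.118 to 0.292, Kif4 -0.0871 to 0.307, Top2a -0.108 to 0.262, Ect2 -0.146 to 0.0622, Racgap1 -0.0277 to 0.267, Kif20a -0.202 to 0.216, Prc1 -0.0179 to 0.333, Arhgef2 -0.0757 to 0.46, Anapc10 -0.466 to 0.016, Cdca5 -0.00444 to 0.28, Ncaph -0.0251 to 0.303, Sept7 -0.525 to 0.0883. The cause was not tested. FPKM keep no counts, so no interval for counting error can be given. Without the block, Foxm1, at 5.15 FPKM in KO 2, had the widest interval of the 39 (SE 0.43). With the block the SE of Foxm1 was 0.18, and the largest of the 39 was that of Cdc20, at 0.20.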
